A study of Mus musculus with 4 samples.

Results

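The genes described here are 52 named genes of DNA replication and mitosis, followed in the livers of mice given a chemical carcinogen, a bile acid diet, both or neither. They were chosen by function, with earlier results of these data known. They comprise 18 genes of the S phase (origin licensing, helicase activation, nucleotide supply and their regulators) and 34 genes of mitosis. A probe set annotated with a single gene symbol was found for 51 of the 52, which are 18 S-phase and 33 mitotic genes out of 18194 genes named in this way on the array. Ccnb1 had none and is not analysed here. The groups were mice given diethylnitrosamine (DEN) and then a diet with 0.2% cholic acid (CA), mice given DEN and then the control diet, mice on the CA diet without DEN, and mice on the control diet without DEN. DEN is a carcinogen that is activated in hepatocytes and initiates liver tumours in mice, and cholic acid is a primary bile acid. All livers were taken at 10 months of age, and each group is represented by 1 array hybridised with a pool of livers from 3 to 5 animals. The sources used here give neither strain nor sex, nor how much tumour a pool contained.

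There was thus no replicate and no test, and every difference below is the difference between 2 pools. Whether a difference exceeds the variation between mice was not measurable, and the number of arrays limits the precision. In bulk liver, more cells in the cell cycle and more transcript in each cell cannot be told apart.

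Cells prepare replication in G1 by loading the MCM helicase onto origins with the help of Cdc6 and Cdt1, and the helicase is activated at the start of the S phase. Many of the genes for these steps are targets of E2F transcription factors. The mitotic genes are switched on later, in G2, when activators with MYB and FOXM1 have replaced the DREAM repressor complex at a promoter element named CHR. CCAAT boxes bound by NF-Y often lie nearby. Adult hepatocytes are mostly quiescent and many are polyploid, and mitotic transcripts are scarce in normal adult liver.

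Levels are log2 values after RMA, a method that corrects the background, equalises the arrays and combines a probe set's probes into 1 value. Where a gene had several probe sets, the one with the highest mean level was used. The array medians over all probe sets lay between 4.84 and 4.86. The median of all probe set means, 4.86, is used below as a limit near background, since no detection calls were used. Each comparison is given with the levels as deposited and with every lower level raised to this limit, and a fold that involves a raised level is written as "at least". A gene counts as different from 2-fold on, a log2 difference of 1. The 18 hybridization control probe sets differed by at most 0.184 to 0.370 (log2) in the 5 comparisons. The difference between 3' and 5' probe sets of beta-actin, a sign of RNA integrity, lay between 1.70 and 1.90 (log2) on the 4 arrays.

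Of the 18 S-phase genes, 15 reached the limit in their mean level, and so did 22 of the 33 mitotic genes. Cdc6, Tyms and Uhrf1 among the S-phase genes and Aurkb, Bub1, Cenpe, Kif4 and Melk among the mitotic genes lay under the limit on all 4 arrays. The S-phase genes under the limit numbered 3 on each of the 4 arrays. Of the 33 mitotic genes 5 lay under the limit with DEN and CA diet, 7 with DEN and control diet, 15 with CA diet and 23 with control diet. Raising low levels therefore bears mainly on the mitotic genes and mainly on the arrays without DEN.

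The S-phase genes were mostly little different after DEN, while most mitotic genes were higher. In the DEN pool on the control diet, 3 of the 18 S-phase genes were at least 2-fold higher than in the control diet pool without DEN (Mcm6, Mcm5 and Rrm2) and 1 was 2-fold lower (Mcm10). Of the 33 mitotic genes 22 stood higher and none lower by 2-fold or more. Over all 18194 genes the shares were 3.82% for 2-fold higher and 0.632% for 2-fold lower. The median log2 difference was 0.31 for the S-phase genes, 1.62 for the mitotic genes and -0.02 for all genes. With low levels raised, the S-phase genes had 3 of 18 at least 2-fold higher and a median of 0.22, and the mitotic genes 16 of 33 and a median of 0.91, where 3.07% of all genes were 2-fold higher. The difference of the medians, S-phase minus mitotic, was -1.30 as deposited and -0.69 with raised levels.

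On the CA diet the same contrast, DEN with CA diet against CA diet alone, had 2 of 18 S-phase genes at least 2-fold higher (Mcm2 and, at the threshold, Mcm6) and 2 at least 2-fold lower (Mcm10 and Tk1). Of the 33 mitotic genes 12 stood higher and none lower by that much. Of all genes 3.51% were higher and 1.17% lower by that much. The medians were 0.34 for the S-phase and 0.79 for the mitotic genes. With raised levels they were 0.05 for the S-phase and 0.61 for the mitotic genes, with 2 S-phase and 8 mitotic genes 2-fold higher against 2.95% of all genes. S-phase minus mitotic was -0.45 as deposited and -0.56 with raised levels. Both DEN arrays lay above both arrays without DEN for 10 of the 18 S-phase genes and for 29 of the 33 mitotic genes, against 26.9% of all genes. Both lay below for 3 S-phase genes, Mcm10, Tk1 and Gins1, and for none of the mitotic genes, against 29.6% of all genes. For Gins1 the log2 differences were only -0.10 on control diet and -0.0052 on CA diet.

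**Figure D1:**
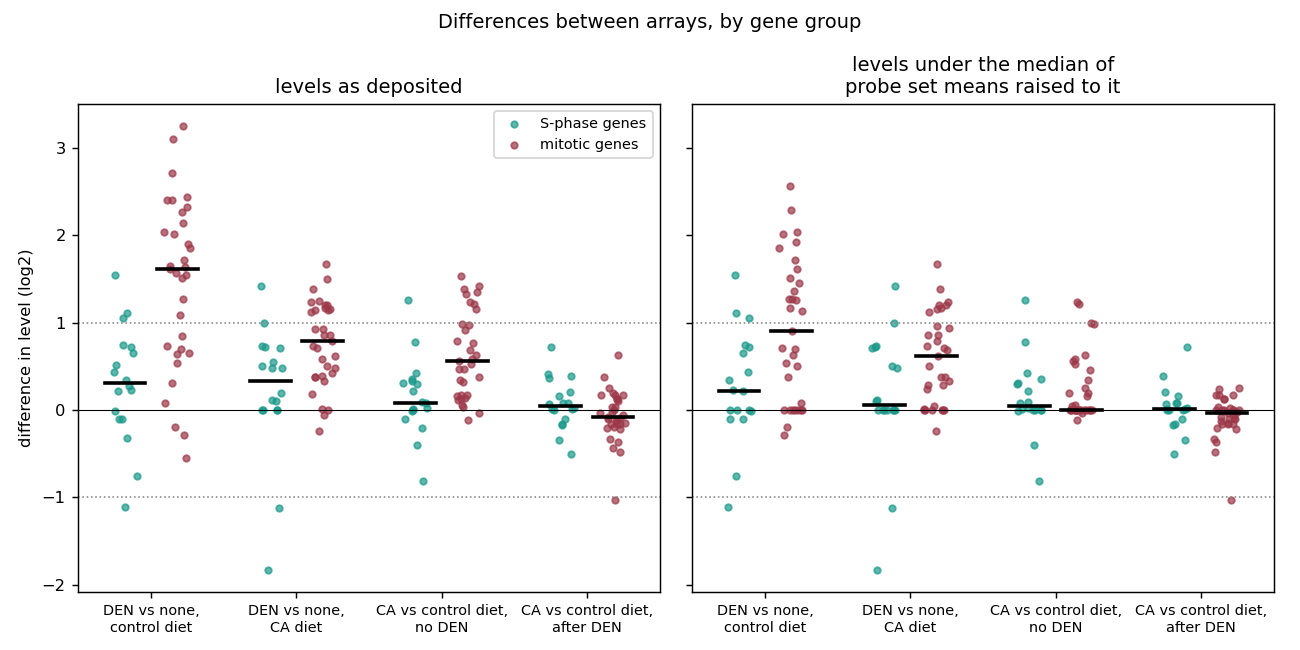
Log2 differences of 18 S-phase and 33 mitotic genes in 4 comparisons of 2 arrays, with levels as deposited on the left and with low levels raised to the limit on the right. Each point is a gene, the black bar is the median of its group and the dotted lines mark 2-fold. The mitotic median is 1.62 for DEN on the control diet and -0.08 for the CA diet after DEN.

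The promoters are shown because the elements that E2F and the mitotic regulators read lie in them. RefSeq promoter windows on GRCm38.p6, from 250 bases before to 50 bases after a transcription start, were matched to 45 of the 52 genes, Ccnb1 included. The letters searched on both strands were TTCCCGC and TTGGCGC for E2F, TTTGAA and TTCGAA for the CHR and CCAAT for the CCAAT box. Where a gene had several windows the first listed was used. The CHR letters were in 3 of 16 S-phase promoters (18.8%), in 22 of 29 mitotic promoters (75.9%) and in 18.2% of the windows of 17492 protein-coding genes. The E2F letters were in 8 of 16 S-phase promoters (50%), in 4 of 29 mitotic promoters (13.8%) and in 8.79% of all windows. CCAAT was in 11 of 16 S-phase (68.8%), 23 of 29 mitotic (79.3%) and 39.0% of all windows. CHR and CCAAT occurred together in 3 of 16 S-phase promoters, in 20 of 29 mitotic promoters and in 7.43% of all windows. These matches are a description of the letters and show neither binding nor a cause of the levels.

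Below are the 250 bases before the start, on the strand of the gene, for the 3 S-phase and the 3 mitotic genes with the largest difference for DEN on the control diet with raised levels. Capitals mark E2F, CHR and CCAAT letters on either strand.
Mcm6 (chr1:128359706-128359955, minus strand): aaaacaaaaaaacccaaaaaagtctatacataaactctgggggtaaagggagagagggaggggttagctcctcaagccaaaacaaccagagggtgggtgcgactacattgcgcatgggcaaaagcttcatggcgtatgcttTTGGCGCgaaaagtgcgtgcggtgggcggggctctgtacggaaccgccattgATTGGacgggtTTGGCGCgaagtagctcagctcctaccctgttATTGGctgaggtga
Mcm5 (chr8:75109259-75109508, plus strand): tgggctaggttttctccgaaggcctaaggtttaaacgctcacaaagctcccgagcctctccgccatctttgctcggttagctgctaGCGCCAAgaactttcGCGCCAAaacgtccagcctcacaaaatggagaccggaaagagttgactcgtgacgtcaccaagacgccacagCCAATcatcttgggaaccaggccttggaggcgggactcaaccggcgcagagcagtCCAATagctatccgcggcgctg
Rrm2 (chr12:24708004-24708253, plus strand): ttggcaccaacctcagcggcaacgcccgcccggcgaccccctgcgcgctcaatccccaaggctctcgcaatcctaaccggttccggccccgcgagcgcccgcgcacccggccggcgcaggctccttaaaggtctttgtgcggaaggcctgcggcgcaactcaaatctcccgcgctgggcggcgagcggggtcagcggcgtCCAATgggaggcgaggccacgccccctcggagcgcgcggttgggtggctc
Ube2c (chr2:164769679-164769928, plus strand): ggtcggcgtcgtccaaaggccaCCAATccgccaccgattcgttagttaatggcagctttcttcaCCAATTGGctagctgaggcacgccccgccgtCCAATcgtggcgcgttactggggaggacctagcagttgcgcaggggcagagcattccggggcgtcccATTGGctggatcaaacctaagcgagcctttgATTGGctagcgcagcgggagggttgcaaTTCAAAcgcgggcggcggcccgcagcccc
Mki67 (chr7:135716380-135716629, minus strand): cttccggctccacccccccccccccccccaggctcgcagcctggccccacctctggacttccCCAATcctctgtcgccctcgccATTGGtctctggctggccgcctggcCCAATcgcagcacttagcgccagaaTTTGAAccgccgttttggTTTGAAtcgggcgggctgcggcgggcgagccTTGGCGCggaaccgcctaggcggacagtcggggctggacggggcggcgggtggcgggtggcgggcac
Cdk1 (chr10:69352913-69353162, minus strand): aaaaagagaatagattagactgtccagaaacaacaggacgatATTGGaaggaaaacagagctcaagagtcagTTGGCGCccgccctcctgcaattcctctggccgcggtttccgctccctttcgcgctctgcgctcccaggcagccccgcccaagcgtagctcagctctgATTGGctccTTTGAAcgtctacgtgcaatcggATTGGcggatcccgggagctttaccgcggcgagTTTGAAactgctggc
Positions are counted from the start, which follows position -1. In Mcm6 the E2F letters begin at positions -109 and -46, and in Mcm5 at -164 and -149, and neither window has CHR letters. Ube2c has CHR letters at -29, Mki67 at -116 and -98 and Cdk1 at -71 and -15, and all 3 have CCAAT letters upstream of them. In Ube2c the CCAAT matches at -186 and -183, on opposite strands, overlap. Mki67 and Cdk1 hold E2F letters as well, and Rrm2 holds none of the letters other than 1 CCAAT.

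Of the 8 genes that load the helicase, 2 were at least 2-fold higher with DEN on each diet, Mcm6 and Mcm5 on the control diet and Mcm2 and Mcm6 on the CA diet. The 6 Mcm2 to Mcm7 proteins form the ring of the helicase, and Cdc6 and Cdt1 place it on the origins. The 8 log2 differences were all above 0, from 0.21 to 1.54 on control diet and from 0.10 to 1.42 on CA diet, with medians of 0.69 and 0.72. Mcm6 had log2 levels of 7.49 with DEN and CA diet, 6.77 with DEN and control diet, 6.49 with CA diet and 5.22 with control diet. Its level thus ordered the 4 arrays with the control diet lowest and both treatments highest, and DEN with CA diet stood 4.81-fold above the control diet. Mcm2 had log2 levels of 7.41 with DEN and CA diet, 7.25 with DEN and control diet, 5.99 with CA diet and 6.81 with control diet, so that its lowest array was the CA diet without DEN. Another probe set of Mcm2 did not show this order, with log2 levels of 5.90, 5.69, 4.53 and 4.03 on the same arrays. Mcm7, with log2 levels of 8.21, 8.38, 7.73 and 7.64 in that order, was 1.67-fold higher with DEN on the control diet. Of the other ring subunits Mcm5 had log2 levels of 6.82, 6.80, 6.11 and 5.69 and was 2.16-fold higher, Mcm4 was 1.57-fold higher, and Mcm3, with 5.66, 5.77, 5.56 and 5.55, was 1.16-fold higher. Cdt1 had levels of 7.01, 6.92, 6.28 and 6.20 and was 1.65-fold higher, and Cdc6 stayed at 2.50 to 3.38, under the limit. On the CA diet the DEN difference of Mcm3 was smaller than the largest between hybridization controls on the probe set used. Its other probe sets differed by 0.94, 0.85, -0.29 and -0.08 (log2) for DEN on the control diet, the negative ones under the limit on all arrays. In the same order they differed by 0.78, 1.10, 0.23 and -0.34 for the CA diet without DEN. The first and second had control diet levels of 4.63 and 3.91, under the limit.

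The 3 genes of helicase activation were not higher with DEN on either diet. Cdc45 and Gins1 belong to the CMG complex, the active form of the helicase, and Mcm10 takes part in its activation. Cdc45 had log2 levels of 6.24 to 6.26 on the 4 arrays. Gins1 had 6.02 with DEN and CA diet, 5.94 with DEN and control diet, 6.03 with CA diet and 6.04 with control diet, so that neither gene differed by as much as the hybridization controls. Mcm10 was the S-phase gene with the lowest difference, with log2 levels of 8.31 with DEN and CA diet and 8.81 with DEN and control diet, against 10.13 with CA diet and 9.91 with control diet. That is 3.55-fold lower with DEN on the CA diet and 2.15-fold lower on the control diet. A second probe set of Mcm10 differed by -0.26 (log2) on control diet and by -0.27 on CA diet, and the last lay under the limit on every array.

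The enzymes of nucleotide supply were split. Rrm2, the regulated subunit of ribonucleotide reductase, had log2 levels of 7.52 with DEN and CA diet, 7.68 with DEN and control diet, 7.40 with CA diet and 6.62 with control diet. Only the control diet array stood apart, and DEN on the CA diet differed by 0.12 (log2). Rrm1, the large subunit of the same enzyme, likewise had only the control diet array lower on the probe set used. Its log2 levels there were 6.78 to 6.79 on the 3 treated arrays and 6.43 on the control diet. Another probe set of Rrm1 was lowest on the CA diet array. It had log2 levels of 5.06 with DEN and CA diet, 5.11 with DEN and control diet, 4.68 with CA diet and 4.85 with control diet. Tk1, the cytosolic thymidine kinase of the salvage pathway, had log2 levels of 6.33 with DEN and CA diet and 6.68 with DEN and control diet, against 7.46 with CA diet and 7.44 with control diet. It was 2.18-fold lower with DEN on the CA diet and 1.69-fold lower on the control diet, and it had a single probe set. Tyms, the thymidylate synthase gene, lay between log2 levels of 2.66 and 3.07, under the limit. Pcna, the sliding clamp of the replication fork, had log2 levels of 9.59, 9.52, 9.59 and 9.29 in the order DEN with CA diet, DEN with control diet, CA diet, control diet. E2f1 had 5.79, 5.58, 5.29 and 5.68 in that order, lowest with the CA diet without DEN, and Uhrf1, which recognises hemimethylated DNA behind the fork, lay between 3.95 and 4.43.

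**Figure D2:**
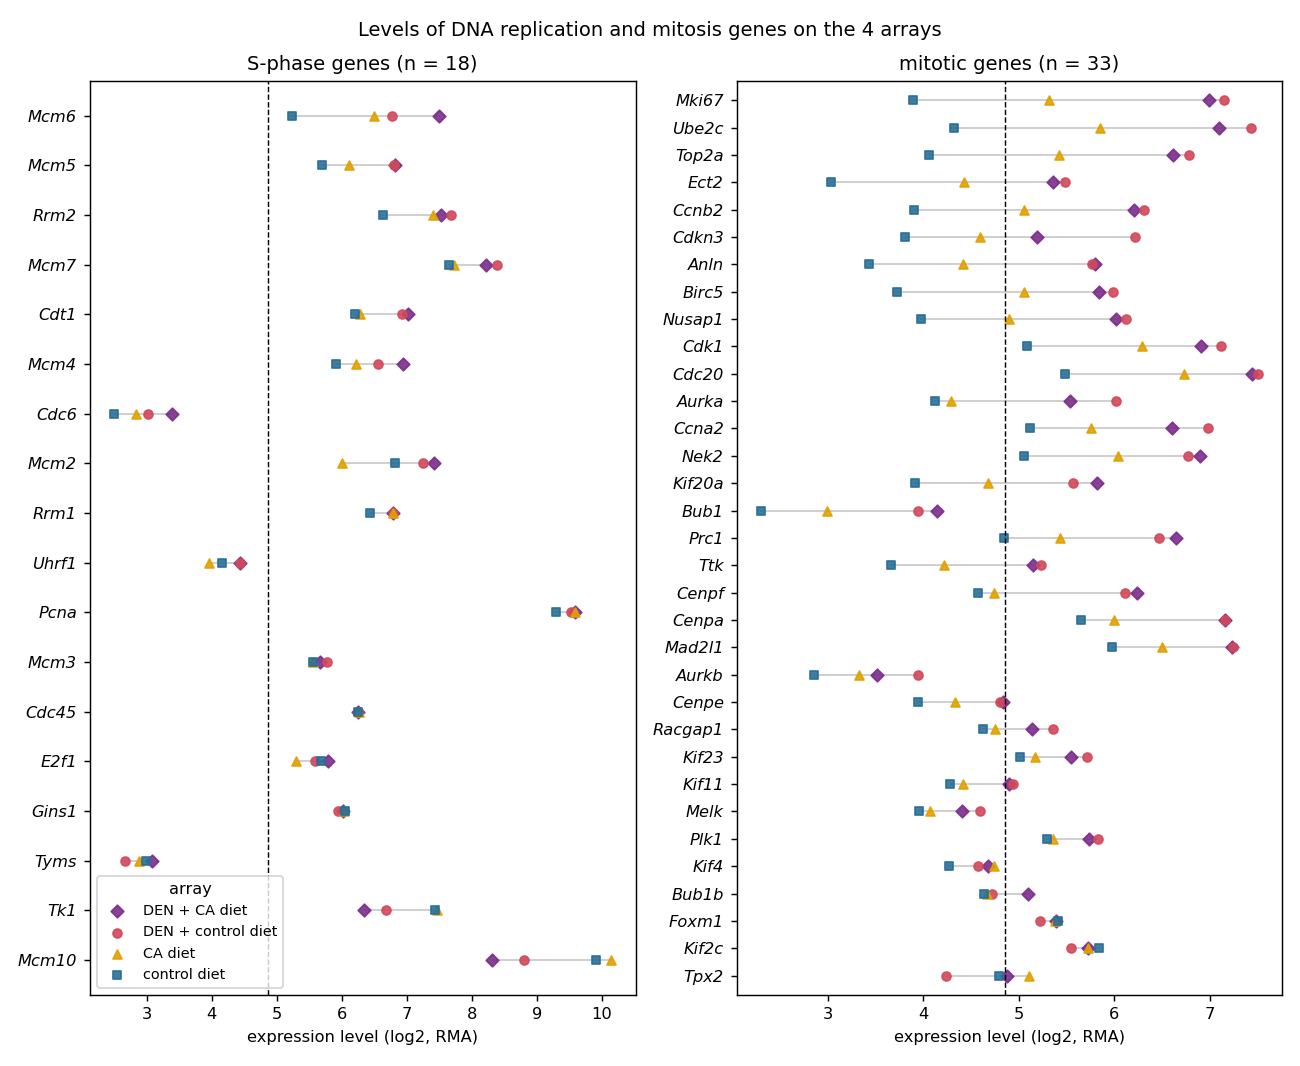
Log2 expression levels of the 18 S-phase genes (left) and 33 mitotic genes (right) on the 4 arrays, sorted by the DEN difference on the control diet. The dashed line marks the limit near background at 4.86, under which 23 of the 33 mitotic genes lie on the control diet array.

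Of the 4 measured genes for CDK1, its cyclins and a CDK phosphatase, all were at least 2-fold higher with DEN on the control diet, and 1 (Ccnb2) on the CA diet. Cdk1, the kinase that drives entry into mitosis, had log2 levels of 6.91 with DEN and CA diet, 7.12 with DEN and control diet, 6.29 with CA diet and 5.08 with control diet. All 4 of its levels lay above the limit, and DEN on the control diet stood 4.10-fold higher. Ccna2, the cyclin of S phase and G2, had log2 levels of 6.61, 6.98, 5.76 and 5.12 in the same order and was 3.62-fold higher with DEN on the control diet. Ccnb2, a mitotic cyclin, had levels of 6.21, 6.31, 5.05 and 3.90, and its fold for DEN on the control diet was at least 2.74. Cdkn3, a phosphatase that acts on CDKs, had levels of 5.19, 6.22, 4.60 and 3.81, so that its highest array was DEN with control diet alone. On the CA diet, DEN stood 1.53-fold higher for Cdk1, 1.81-fold for Ccna2, 2.22-fold for Ccnb2 and at least 1.26-fold for Cdkn3.

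Mki67, the proliferation antigen that coats mitotic chromosomes, had log2 levels of 6.99 with DEN and CA diet, 7.15 with DEN and control diet, 5.32 with CA diet and 3.90 with control diet. It was at least 4.91-fold higher with DEN on the control diet and 3.19-fold higher on the CA diet. Top2a, the topoisomerase that untangles sister chromatids, had log2 levels of 6.62, 6.79, 5.42 and 4.06 in that order and was at least 3.81-fold and 2.30-fold higher in these comparisons. Both DEN arrays of the 2 genes stood well above both arrays without DEN. Foxm1, the transcription factor of the G2 programme, differed from them, with log2 levels of 5.39, 5.23, 5.38 and 5.42. Its 4 probe sets differed by -0.19 to 0.16 (log2) for DEN on the control diet.

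Of the 11 genes for mitotic kinases, the spindle checkpoint and the anaphase-promoting complex, Ube2c had the largest range. This ubiquitin-conjugating enzyme of the anaphase-promoting complex had log2 levels of 7.09 with DEN and CA diet, 7.43 with DEN and control diet, 5.85 with CA diet and 4.32 with control diet. DEN on the control diet stood at least 5.95-fold higher, the largest raised difference of all 51 genes. Cdc20, an activator of the same complex, had levels of 7.45, 7.50, 6.73 and 5.49 in that order, all above the limit, and was 4.04-fold higher. Mad2l1, the checkpoint protein that restrains Cdc20, had levels of 7.23, 7.25, 6.50 and 5.97 and was 2.42-fold higher. Among the kinases, Nek2 was 3.30-fold and Aurka at least 2.24-fold higher, while Plk1 was 1.45-fold higher. Aurka, the kinase of the spindle poles, had levels of 5.54, 6.02, 4.29 and 4.12 in that order, and Nek2, a centrosomal kinase, 6.90, 6.78, 6.04 and 5.06. Ttk, a checkpoint kinase, was at least 1.30-fold higher, and Bub1b, with 5.10, 4.72, 4.67 and 4.64, passed the limit on a single array. Aurkb and Bub1 had deposited differences of 1.08 and 1.64 (log2) but levels of 3.95 at most with DEN on the control diet, under the limit.

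Spindle, centromere and cytokinesis genes also differed among themselves. Prc1, which bundles the central spindle, had log2 levels of 6.64 with DEN and CA diet, 6.47 with DEN and control diet, 5.44 with CA diet and 4.85 with control diet, and was at least 3.06-fold higher with DEN on the control diet. Nusap1, a spindle-associated protein, had levels of 6.02, 6.12, 4.90 and 3.98 in that order and was at least 2.41-fold higher. Cenpa, the histone H3 variant of centromeres, had levels of 7.17 on both DEN arrays, 6.0 with CA diet and 5.66 with control diet, a 2.85-fold difference for DEN on the control diet. Cenpf had levels of 6.24 and 6.11 on the DEN arrays with CA and control diet, against 4.74 with CA diet and 4.57 with control diet, and Birc5, survivin of the passenger complex, was at least 2.20-fold higher with DEN on the control diet. Of the cytokinesis genes none reached 2-fold with raised levels for DEN on the control or CA diet, where 3.07% and 2.95% of all genes were higher. Ect2, an activator of RhoA at the cell equator, had levels of 5.36, 5.48, 4.43 and 3.04, and Anln, the contractile ring protein anillin, 5.80, 5.77, 4.42 and 3.44. Their deposited differences for DEN on the control diet were 2.44 and 2.33 (log2), which is 5.44-fold and 5.02-fold. Only at least 1.55-fold and 1.88-fold were measured above the limit. Racgap1, the partner of the kinesin Kif23, had levels of 5.14, 5.36, 4.75 and 4.63, and Kif23 itself 5.55, 5.71, 5.17 and 5.01. The 5 kinesin genes did not reach 2-fold with raised levels, with Kif23 1.62-fold, Kif20a at least 1.64-fold and Kif11 at least 1.06-fold higher for DEN on the control diet, and Kif4 under the limit throughout. The fifth, Kif2c, with levels of 5.73, 5.55, 5.73 and 5.84, and Tpx2, with 4.87, 4.24, 5.11 and 4.79, had no higher level with DEN on the control diet on the probe sets used.

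The CA diet without DEN gave smaller differences in the same genes, and most of them lay near background. Of the 18 S-phase genes 1 was at least 2-fold higher on the CA diet than on the control diet as deposited, and of the 33 mitotic genes 8, where 0.478% of all genes were higher by that much. The medians were 0.08 for the S-phase and 0.56 for the mitotic genes (log2). With low levels raised, 1 S-phase gene and 2 mitotic genes were at least 2-fold higher, against 0.346% of all genes, and the medians were 0.05 for the S-phase and 0.00 for the mitotic genes. S-phase minus mitotic was thus -0.47 as deposited and 0.05 with raised levels. The 3 genes were Mcm6 (2.40-fold), Cdc20 (2.37-fold) and Cdk1 (2.31-fold), each measured above the limit on both arrays. Ube2c, just under the threshold with its control level raised, and Nek2, at 1.98-fold, came next, while Mki67 was at least 1.38-fold and Top2a at least 1.48-fold higher. None of the 51 genes was 2-fold lower on the CA diet, as deposited or with raised levels, against 0.407% and 0.357% of all genes, and Mcm2 had the lowest value at -0.82 on the probe set used.

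After DEN the diets hardly differed in these genes. DEN with CA diet against DEN with control diet had none of the 51 genes at least 2-fold higher, where 0.253% of all genes were, and 1 at least 2-fold lower, where 0.346% were. The counts with raised levels were equal, and the shares of all genes were then 0.203% and 0.286%. The medians were 0.05 for the S-phase and -0.08 for the mitotic genes as deposited, and 0.01 for the S-phase and -0.04 for the mitotic genes with raised levels. The gene 2-fold lower was Cdkn3 (2.05-fold lower), and Aurka was 1.40-fold, Mcm10 1.42-fold and Ccna2 1.29-fold lower. Mcm6 had the highest value, at 1.65-fold higher with DEN and CA diet. Another probe set of Mcm6 gave the same direction, with log2 differences of 0.51 after DEN and 1.54 without DEN.

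The diet difference after DEN minus that without DEN was below 0 for 9 of the 18 S-phase genes and for 29 of the 33 mitotic genes, against 52.1% of all genes, with medians of -0.06 for the S-phase and -0.54 for the mitotic genes (log2). With raised levels it was below 0 for 9 S-phase and 22 mitotic genes, against 38.5% of all genes. It was -1 or lower for no S-phase and 11 mitotic genes, against 0.627% of all genes, and with raised levels for no S-phase and 5 mitotic genes, against 0.357% of all genes. It was 1 or higher for none of the 51, against 0.445% of all genes. Cdk1 had the lowest value with raised levels (-1.42), followed by Ube2c (-1.33) and Cdc20 (-1.30), and in each the CA diet pool was higher without DEN. After DEN the diet differences of Cdk1, Ube2c and Cdc20 were -0.21, -0.33 and -0.06. Only that of Ube2c exceeded the largest difference between hybridization controls in that comparison (0.267). With both treatments against neither, 3 S-phase and 21 mitotic genes were at least 2-fold higher and Mcm10 and Tk1 at least 2-fold lower, where 4.4% of all genes were higher and 1.5% lower. With raised levels 3 S-phase and 13 mitotic genes were higher and Mcm10 and Tk1 lower, where 3.64% and 1.39% of all genes were. The comparisons share arrays, so their counts are not independent of each other.

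**Figure D3:**
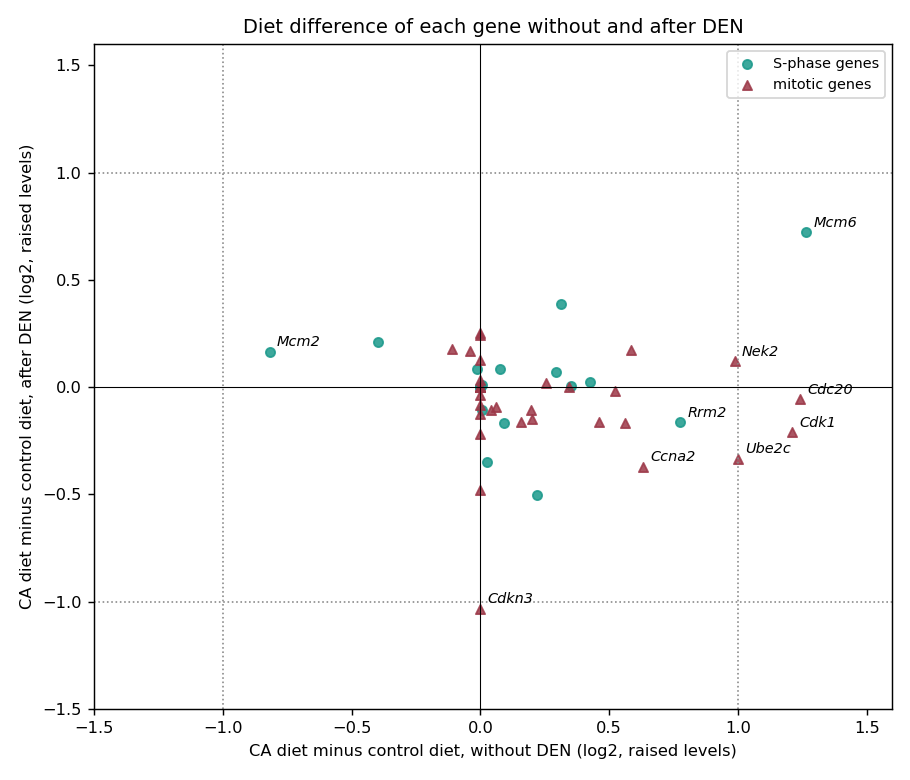
Log2 difference between CA and control diet for each of the 51 genes without DEN (horizontal axis) and after DEN (vertical axis), with low levels raised to the limit. No array is shared between the axes. Mcm6 is the gene highest on both, at 0.72 after DEN and 1.26 without DEN, while Cdc20 and Cdk1 lie at -0.06 and -0.21 after DEN.

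The result for a gene depended on its probe set in many cases. Of the 51 genes 36 had several probe sets, and for 16 of these the probe sets differed in sign for DEN on the control diet. These were Mcm3, Mcm5, Mcm10, Cdc45, Cdt1 and E2f1 among the S-phase genes and Anln, Bub1b, Cenpa, Cenpf, Foxm1, Kif23, Kif2c, Racgap1, Top2a and Tpx2 among the mitotic genes. Among probe sets that reached the limit on any array, only those of Cdc45, Foxm1 and Kif2c differed in sign. In the other genes the conflict came from probe sets under the limit on all arrays. The share of such conflicts over all genes was not computed. Of the 16 genes with several probe sets that were at least 2-fold higher, 6 had another probe set that was also 2-fold higher (Mcm5, Mcm6, Rrm2, Cdc20, Prc1 and Cenpa), that of Mcm5 under the limit on all arrays. Top2a rested on 1 of its 3 probe sets, the others differing by 0.14 and -0.29 (log2), and Nek2 on 1 of 4, the others differing by 0.09 to 0.14. Conversely, Mcm2, Kif11, Kif2c and Racgap1 were under 2-fold on the probe set used and had another that was 2-fold higher. Another probe set of Kif2c had log2 levels of 4.79, 5.09, 3.60 and 3.08, in the order DEN with CA diet, DEN with control diet, CA diet, control diet, a deposited difference of 2.01 for DEN on the control diet. With low levels raised none of these other probe sets reached 2-fold for a gene that was under it. For DEN on the CA diet the probe sets differed in sign for 18 of the 36 genes, here too counting probe sets under the limit on all arrays. Of the 10 genes with several probe sets that were at least 2-fold higher there, only 1 had another that was also 2-fold higher (Mcm2). For 11 of the 51 genes, among them Mcm2 to Mcm5, Mcm7, Rrm2, Cdc20, Prc1 and Nek2, the probe set used is of the types that can match more than one transcript (names ending in s_at or x_at), so that signal from related transcripts cannot be separated.

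**Figure D4:**
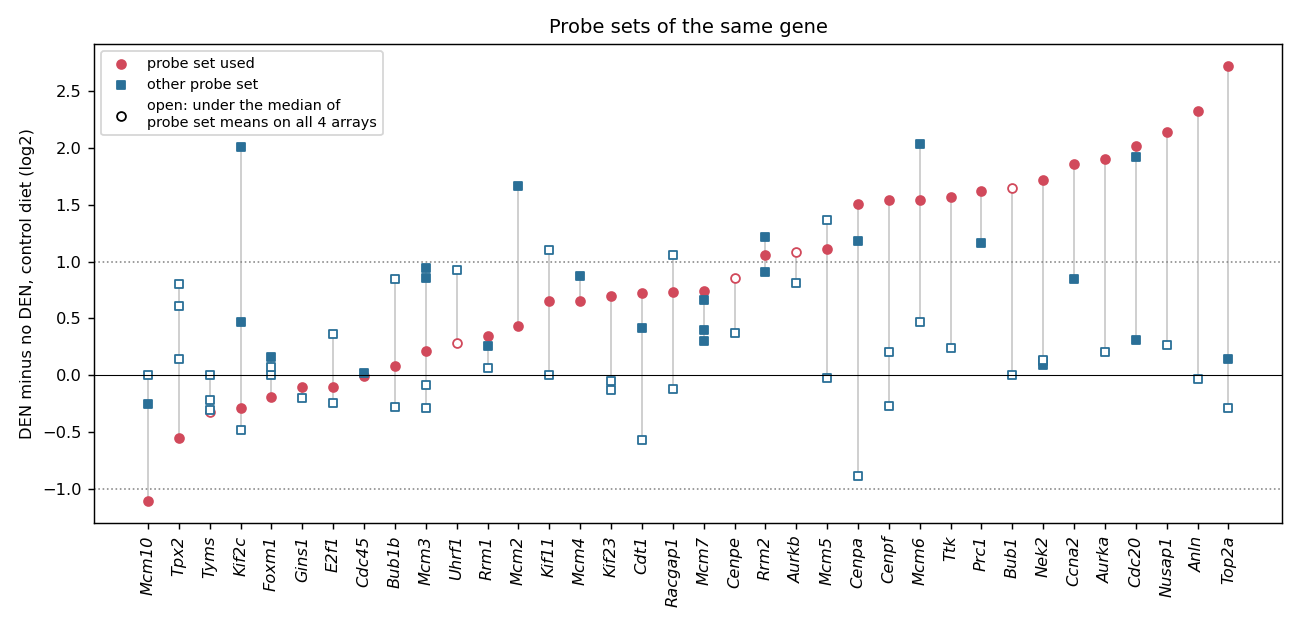
Log2 difference for DEN on the control diet, for every probe set of the 36 genes with several, sorted by the probe set used. Open symbols lie under the limit on all 4 arrays. Kif2c and Mcm2 have another probe set at 2.01 and 1.66, and Top2a has others at 0.14 and -0.29.

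Further genes of both phases were measured beside these, listed by function as well. These lists too were made with earlier results of these data known, so they are no independent check. Of 42 other S-phase genes 1 was at least 2-fold higher with DEN on the control diet, as deposited and with raised levels, and none 2-fold lower (medians 0.08 and 0.07). Of 57 other mitotic genes 20 reached this (median 0.62), or 10 with raised levels (median 0.00), and none stood lower by 2-fold. Over all genes 3.82% were 2-fold higher as deposited and 3.07% with raised levels, and 0.632% were 2-fold lower as deposited. On the CA diet DEN had 0 of 42 S-phase and 8 of 57 mitotic genes at least 2-fold higher, and 1 of 42 and 0 of 57 at least 2-fold lower. Of all genes 3.51% were higher and 1.17% lower by that much. With raised levels 0 of 42 and 2 of 57 were at least 2-fold higher, against 2.95% of all genes. Kif22, a chromosome-arm kinesin, had log2 levels of 7.50 with DEN and CA diet, 7.62 with DEN and control diet, 6.70 with CA diet and 5.60 with control diet, a 4.06-fold difference for DEN on the control diet. Cdca3, a trigger of mitotic entry, was at least 3.26-fold and Ncapg2, a condensin II subunit, at least 3.18-fold higher. Dbf4, the activating subunit of the Cdc7 kinase, was the S-phase gene past 2-fold (2.13-fold), followed by Prim1 of the primase (1.88-fold) and Timeless (at least 1.76-fold). Fen1, the flap endonuclease of lagging strands, was 1.73-fold lower. After DEN the CA diet had none at least 2-fold higher in either list, and without DEN it had 2 of 42 S-phase and 7 of 57 mitotic genes, or 2 and 3 with raised levels. Of all genes 0.253% were higher after DEN and 0.478% without DEN, or 0.203% and 0.346% with raised levels.

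Markers of several other cell types had median differences above 0 with DEN as well. The 9 hepatocyte markers measured had medians of 0.04 and 0.01 (log2) for DEN on the control and CA diet, with Alb at levels of 14.74 to 14.82, so that liver markers were abundant on every array. Tat was 2-fold lower for DEN on the CA diet (-1.65, log2) and for the CA diet after DEN (-1.24). It was the 1 marker of the 9 lower by that much in each, and 0 were higher. Of all genes 1.08% and 0.286% were 2-fold lower there with raised levels. The 10 macrophage markers had median log2 levels of 9.69 with DEN and CA diet, 8.74 with DEN and control diet, 8.97 with CA diet and 8.40 with control diet. Their median differences were 0.67 and 0.55 for DEN on the control and CA diet, with 4 and 3 of 10 at least 2-fold higher, and 0.48 and 0.67 for the CA diet after and without DEN, with 1 of 10 at least 2-fold higher each. In the same order of comparisons the mitotic medians were 1.62, 0.79, -0.08 and 0.56 as deposited, and a link between the 2 lists was not tested. The other lists had medians for DEN on the control diet of 0.73 for cholangiocytes (1 of 7 at least 2-fold higher), 0.53 for stellate cells and fibroblasts (2 of 10), 0.48 for T and NK cells (0 of 8), 0.31 for endothelial cells (1 of 10) and 0.26 for B and plasma cells (1 of 8). For DEN on the CA diet these medians were 0.19 for cholangiocytes (2 of 7), 0.16 for stellate cells and fibroblasts (2 of 10), 0.37 for T and NK cells (0 of 8), 0.48 for endothelial cells (1 of 10) and 0.42 for B and plasma cells (0 of 8). On the control diet neutrophil markers stood at 0.02 (2 of 8) and erythroid markers at -0.29 (0 of 7). These counts are with raised levels. Among all 18194 genes 3.07% were then 2-fold higher with DEN on control diet and 2.95% on CA diet. The CA diet had shares of 0.203% after DEN and 0.346% without DEN. Means under the limit were found for 4 of 7 cholangiocyte and 4 of 8 T and NK cell markers. The same held for 5 of 8 B and plasma cell, 5 of 8 neutrophil and 4 of 7 erythroid markers. Which cells carried the mitotic transcripts was not measured, and the part of the other cell types in the result was not tested.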

How the data were processed

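Liver RNA pooled from 3 to 5 mice per group was hybridised to 4 Affymetrix mouse arrays, 1 per group, after labelling with the FlashTag Biotin HSR kit, per the labels. The authors deposited log2 values, which per the submitters' processing notes come from RMA in Partek 6.5. The method equalises the distributions of the arrays, so a shift of total RNA would not be seen. Of 45101 probe sets, 34958 carried 1 gene symbol, 932 several and 9211 none, and for 34754 the gene ID was found in RefSeq with no symbol to update. Each of 18194 genes was represented by its probe set of highest mean level. Differences between arrays were computed with Python 3.11.15, pandas 2.3.3 and numpy 2.4.6, with no test, since no group had a replicate. They were repeated with levels under 4.86 raised to it. The counting of 2-fold differences was tested on simulated data with known changes. No column was left unmapped.

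The genes and lists were chosen with earlier results of these data known. Named with all levels were, in each of 10 role groups, the 2 genes with the highest mean and the 2 with the largest range after raising, every gene past 2-fold between diets with raised levels or 2-fold lower in any comparison, and genes whose probe sets differed in direction for DEN on the control diet. In the comparison lists they were the top 3 for DEN on the control diet. Levels of other genes were added after their values were seen. Hybridization controls gave the yardstick for a moved median. The alternatives were raised levels, mean or median over probe sets, a filter on genes under the limit, a 1.5-fold threshold, quantile normalization, centring on expressed genes and leaving out probe sets of the s_at and x_at types.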

Additional observations from a re-analysis of the deposited data

Results flagged for a closer look

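As deposited, the diet difference of the mitotic genes had opposite signs after and without DEN. The median over the 33 mitotic genes was -0.083 (log2) for DEN with CA diet against DEN with control diet, and 0.56 for CA diet against control diet. The first is smaller than the largest difference between hybridization controls in that comparison (0.267), and with raised levels the medians were -0.04 after DEN and 0.00 without DEN, so that the signs were no longer opposite. The 57 other mitotic genes had medians of 0.06 after DEN and 0.35 without DEN. Among single genes whose diet differences had opposite signs, each larger than the largest difference between hybridization controls in its own comparison (0.267 after DEN and 0.305 without DEN), were Ccna2, at -0.37 after DEN and 0.63 without DEN, and Ube2c, at -0.33 after DEN and 1.00 without DEN with raised levels. A second probe set of Ccna2 was higher with the CA diet on both sides, at 0.38 after DEN and 0.57 without DEN. With 1 array per group the difference was not tested.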

How the results depend on the processing

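Of 93 recomputed values, 72 moved by no more than the largest difference between hybridization controls (medians) or 1.5 times (counts), 19 moved further and 2 reversed, and the cause was not tested except where the construction shows it. The S-phase minus mitotic median for CA diet against control diet, -0.47 as deposited, reversed to 0.050 with raised levels, which set many mitotic genes to the same value on both arrays, and to 0.021 when probe sets of the s_at and x_at types were also left out (an alternative chosen after seeing the data). For DEN with control diet against control diet (-1.30) it was -0.69 with raised levels, -0.63 and -0.66 with the mean and median over probe sets, and -0.71 without those types with raised levels. For DEN with CA diet against control diet (-1.16) it was -0.48, -0.58, -0.62 and -0.47 under the same settings and -1.38 over genes above the limit. The count of genes at least 2-fold higher was 3 rather than 9 for CA diet against control diet with raised levels, with or without those types, and 18 at 1.5-fold. The shares of all genes were 0.346% with those types and 0.324% without, rather than 0.478%, and 2.02% at 1.5-fold. For DEN with CA diet against CA diet the count (14, with 3.51% of all genes) was 5 with the mean (2.66%) and 5 with the median over probe sets (2.75%). It was 9 without those types with raised levels (2.85%) and 26 at 1.5-fold (7.96%). For DEN with CA diet against DEN with control diet (0, with 0.253%) it was 2 at 1.5-fold (1.37%). Without those types and with raised levels, DEN with CA diet against control diet had 13 (3.54%) rather than 24 (4.40%). DEN with control diet against control diet had 16 (2.93%) rather than 25 (3.82%) under this setting. No paired analysis was possible because each group has 1 array, and for the same reason no replicate could be left out. Of 33 mitotic genes, 15 on the CA diet array and 23 on the control diet array lay under the limit, so that folds against those levels are lower bounds, and the 5 under it on all 4 arrays give no fold.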
